A study of Mus musculus with 16 samples.

Results

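Fibrinogen and the acute phase proteins are plasma proteins made mainly by the liver, and their output changes when infection or injury raises cytokines such as interleukin-6. The 10 genes described here were taken by name from the deposited expression table. They are the fibrinogen chains Fga, Fgb and Fgg, the serum amyloids Saa1, Saa2 and Saa3, the orosomucoids Orm1 and Orm2, the lipopolysaccharide-binding protein Lbp and the heavy chain Itih4 of the inter-alpha-trypsin inhibitor family. Of these 10, 9 had a probe set of their own among 22180 measured genes. Saa1 had none, because its only probe set is annotated to both Saa1 and Saa2.

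RNA from kidney cortex was profiled on 16 Affymetrix arrays, 4 for each of 4 genotypes, all from mice 3 months old. Wild-type mice were C57BL/6. The mutants were Vhl F/F Ksp-Cre, Pbrm1 F/F Ksp-Cre and the double mutant Vhl F/F Pbrm1 F/F Ksp-Cre, all on a background mixed from C57BL/6, BALB/c and 129, so every contrast with wild type also compares strains. Ksp-Cre deletes floxed DNA where the Cdh16 promoter is active, in kidney tubule epithelium, and the other cells of the cortex keep both genes. Vhl encodes the ubiquitin ligase subunit that targets hypoxia-inducible factors for degradation, Pbrm1 encodes a subunit of the PBAF chromatin remodeler, and the study looked for early transcriptional events in clear cell renal cell carcinoma. The descriptions give each array a number and the letter L or R, with 2 numbers per group. In wild type and the single mutants 2 arrays share each number. In double mutants replicates 1, 2 and 3 share 1 number and replicate 4 has the other. Fits without replicates 1, 2 and 3 thus leave 1 double mutant array. Where the arrays of 1 number share an animal, p-values measure partly technical spread.

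Fibrinogen is a hexamer of paired alpha, beta and gamma chains, encoded by Fga, Fgb and Fgg, which thrombin turns into the fibrin of clots. In hepatocytes interleukin-6 acts through the receptor subunit gp130 and STAT3 on the promoters of acute phase genes, together with factors of the C/EBP and HNF1 families. Tubule cells are known to produce fibrinogen after kidney injury. Serum amyloid A proteins are small apolipoproteins, orosomucoids are plasma glycoproteins that bind drugs, and Lbp delivers bacterial lipopolysaccharide to CD14.

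The fibrinogen genes lie side by side on chromosome 3, and their promoter windows are shown because each of these genes rose in double mutants. Each window runs from 250 bases before to 50 bases after the start of the RefSeq gene and reads 5′ to 3′ on the gene's strand (GRCm38.p6; chr3:83007474-83007773, plus strand, for Fgg; chr3:83025903-83026202, plus strand, for Fga; chr3:83049814-83050113, minus strand, for Fgb). Capitals mark matches to the motifs searched.
Fgg: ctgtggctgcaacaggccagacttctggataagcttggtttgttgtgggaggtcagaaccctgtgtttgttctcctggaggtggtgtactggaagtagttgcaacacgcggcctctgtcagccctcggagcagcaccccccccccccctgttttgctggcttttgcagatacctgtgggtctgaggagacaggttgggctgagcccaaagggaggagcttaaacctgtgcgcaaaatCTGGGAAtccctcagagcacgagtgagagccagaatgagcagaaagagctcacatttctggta
Fga: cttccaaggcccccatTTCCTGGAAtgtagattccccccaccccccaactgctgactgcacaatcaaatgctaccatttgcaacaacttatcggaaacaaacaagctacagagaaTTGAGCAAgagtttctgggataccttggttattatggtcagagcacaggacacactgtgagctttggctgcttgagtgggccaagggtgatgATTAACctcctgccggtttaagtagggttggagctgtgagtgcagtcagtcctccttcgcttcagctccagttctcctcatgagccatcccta
Fgb: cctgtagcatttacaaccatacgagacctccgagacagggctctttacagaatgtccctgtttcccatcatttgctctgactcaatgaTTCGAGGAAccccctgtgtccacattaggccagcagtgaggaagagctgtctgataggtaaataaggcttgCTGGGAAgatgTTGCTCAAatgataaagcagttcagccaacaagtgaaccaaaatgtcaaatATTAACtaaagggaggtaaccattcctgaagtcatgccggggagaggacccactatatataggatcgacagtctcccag

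The motifs, searched on both strands, were the interleukin-6 response element core CTGGGAA, the STAT motif TTCNNNGAA, the C/EBP motif TTGCNNAA, the HNF1 motif GTTAAT and the core of the hypoxia response element, ACGTG. The Fgg window held CTGGGAA once, 13 bases before the start. The Fgb window held CTGGGAA 91 bases before the start, followed by a C/EBP match at 80, with a STAT match at 162 and an HNF1 motif at 29. The Fga window held a STAT match 234 bases before the start, a C/EBP match at 135 and an HNF1 motif at 43, and no CTGGGAA. No match overlapped one of another motif. Among all 32851 promoter windows, 11.1% held CTGGGAA, 8.3% the STAT motif, 10.8% the C/EBP motif, 7.1% the HNF1 motif and 19.6% ACGTG.

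RefSeq windows were found for 8 of the 10 genes, not for Lbp and Orm1. The C/EBP motif was also found in the windows of Orm2, Saa1, Saa2 and Saa3, and the STAT motif in that of Itih4. CTGGGAA was found in the windows of Fgg and Fgb among the 8, and ACGTG in none of them. The Saa1 and Saa2 windows were 95.3% identical (287 of 301 aligned positions), against 50.9% between Saa1 and Saa3. The fibrinogen windows were 45.5% to 48.2% identical to each other. These matches describe letters and do not show that a factor binds.

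The fibrinogen gamma chain gene Fgg had the largest rise of the 9 genes in double mutants. On the log2 scale of the deposited values, replicates 1 to 4 of Fgg measured 4.95, 5.29, 5.7 and 5.67 in wild type and 9.7, 9.57, 8.78 and 9.39 in double mutants. Every double mutant array lay above every other array. Vhl mutants measured 6.52, 7.18, 6.95 and 6.43, and Pbrm1 mutants 6.11, 6.06, 5.95 and 6.01. The 4 genotypes thus formed separate bands, with wild type lowest, then Pbrm1, Vhl and double mutants.

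Against wild type, Fgg rose 15.6-fold in double mutants (log2 difference 3.96 ± 0.20 SE, limma adjusted p = 1.1e-10, n = 4 arrays per group, as for all fold changes below). It rose 2.58-fold in Vhl mutants (1.37 ± 0.20 SE, adjusted p = 3.4e-04). In Pbrm1 mutants the difference was 0.63 ± 0.20 SE (95% interval 0.21 to 1.05) and missed the threshold (adjusted p = 0.087), although no array overlapped. It passed when only these groups were fitted (adjusted p = 0.026) and without wild-type replicates 3 and 4 (log2 difference 0.92, adjusted p = 0.024), 2 of the 3 alternatives of 24 in which it passed. These comparisons share the wild-type arrays.

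Fga, the alpha chain gene, had the same order of genotype means with smaller steps. It measured 5.42, 5.5, 5.5 and 5.43 in wild type, 5.61, 5.53, 5.93 and 5.64 in Pbrm1 mutants, 6.22, 6.46, 6.19 and 6.01 in Vhl mutants and 7.88, 7.94, 7.37 and 7.79 in double mutants. No array of 1 genotype overlapped another genotype. Fga rose 4.87-fold in double mutants (log2 difference 2.28 ± 0.13 SE, adjusted p = 3.3e-10) and 1.69-fold in Vhl mutants (0.76 ± 0.13 SE, adjusted p = 0.0013). Pbrm1 mutants differed from wild type by 0.21 ± 0.13 SE (95% interval -0.05 to 0.47, adjusted p = 0.45). Between the single mutants, Vhl mutants were higher for Fga (log2 difference 0.54 ± 0.13 SE, adjusted p = 0.0083) and for Fgg (0.73 ± 0.20 SE, adjusted p = 0.026). The Fgg call ended in 9 of 24 alternatives, among them those without Vhl mutant replicates 2 or 3 or Pbrm1 mutant replicates 3 or 4 (adjusted p from 0.056 to 0.098). The Fga call ended without Vhl mutant replicates 1 and 2 together or Pbrm1 mutant replicates 1 and 2 together (highest adjusted p 0.12).

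Fgb, the beta chain gene, spread more between arrays than the other chains in every group but the Pbrm1 mutants. In wild type it measured 4.15, 4.23, 4.72 and 5.07, and in double mutants 5.94, 6, 4.75 and 6.12. Double mutant replicate 3 lay inside the wild-type range, and the other double mutant arrays lay above it. Vhl mutant replicates 1 and 2, which share a description number, measured 5.37 and 5.6, while replicates 3 and 4, which share another, measured 4.23 and 4.41. Pbrm1 mutants lay between 4.29 and 4.48.

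Fgb rose 2.26-fold in double mutants against wild type (log2 difference 1.18 ± 0.31 SE, adjusted p = 0.014) and 2.51-fold against Pbrm1 mutants (1.33 ± 0.31 SE, adjusted p = 0.0064). The first call ended without double mutant replicate 4 (1.02, adjusted p = 0.063) or without wild-type replicates 1 and 2 (0.81, adjusted p = 0.19), and the second without Pbrm1 mutant replicates 3 and 4 (adjusted p = 0.06). The difference between double and Vhl mutants was 0.82 ± 0.31 SE (95% interval 0.17 to 1.46, adjusted p = 0.13). It passed without double mutant replicate 3 (1.12, adjusted p = 0.014) and without Vhl mutant replicates 1 and 2 (1.39, adjusted p = 0.0098). Against wild type, Vhl mutants differed by 0.36 ± 0.31 SE (95% interval -0.28 to 1.0) and Pbrm1 mutants by -0.15 ± 0.31 SE (-0.79 to 0.49).

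Lbp, which carries lipopolysaccharide to CD14, measured 5.97, 6.08, 6.18 and 6.15 in wild type and 6.81, 6.84, 6.31 and 6.66 in double mutants. All double mutant arrays lay above all wild-type arrays. Vhl mutants measured 6.63, 6.64, 6.35 and 6.09 and Pbrm1 mutants 6.34, 5.95, 6.28 and 5.95, both overlapping the wild-type range. Lbp rose 1.47-fold in double mutants against wild type (log2 difference 0.56 ± 0.14 SE, adjusted p = 0.011) and 1.44-fold against Pbrm1 mutants (0.52 ± 0.14 SE, adjusted p = 0.018). Without wild-type replicates 1 and 2 or double mutant replicates 1, 2 and 3 the first call ended (adjusted p = 0.084 and 0.13). The second ended without any one of double mutant replicates 1 or 2 or Pbrm1 mutant replicates 2 or 4 (adjusted p from 0.054 to 0.06). In Vhl mutants the difference from wild type was 0.33 ± 0.14 SE (95% interval 0.04 to 0.62, adjusted p = 0.23).

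**Figure D1:**
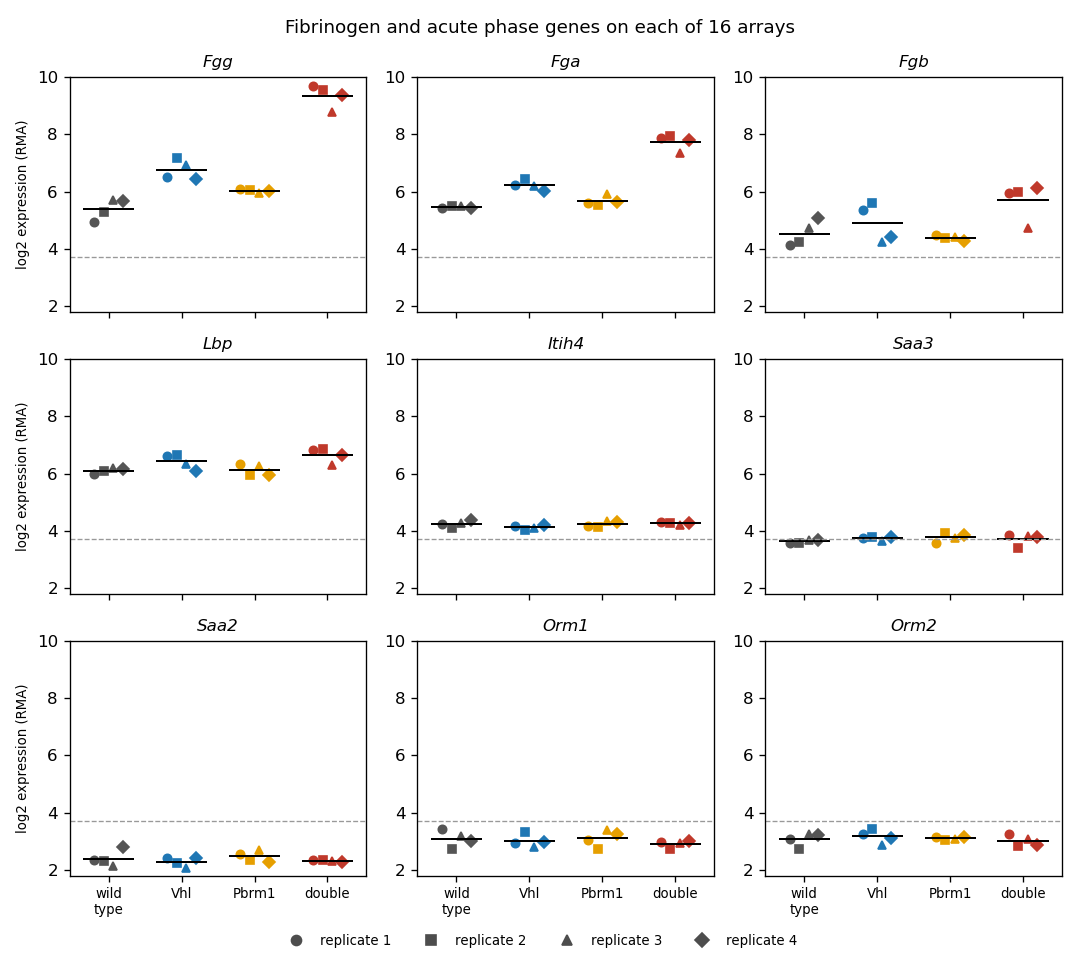
Each panel plots 1 gene, with the genotype on the x axis and log2 expression (RMA) on the y axis; symbols are arrays by replicate, horizontal bars are group means (n = 4) and the dashed line is the dim limit of 3.72. Fgg and Fga separate all genotypes, with double mutants highest, Fgb and Lbp rise less, and Saa2, Orm1 and Orm2 stay below the dim limit on all 16 arrays.

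The remaining genes did not pass in any of the 7 comparisons, and most were too dim to measure. The lower quartile of the genes on the array where it was highest, 3.72, served as a dim limit, and a gene with a group mean below it may be at background there. Saa2 lay between 2.07 and 2.81, Orm1 between 2.72 and 3.42 and Orm2 between 2.74 and 3.43 over all 16 arrays, below the limit on every array. The probe set annotated to both Saa1 and Saa2 was also below it on every array (2.24 to 3.56, the highest value in double mutant replicate 4). Saa3 lay between 3.4 and 3.91, with 7 of 16 arrays below the limit and group means from 3.63 in wild type to 3.78 in Pbrm1 mutants. No fold is given for these genes.

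Itih4 was above the limit on all arrays and differed little between genotypes. It measured 4.23, 4.09, 4.29 and 4.37 in wild type, 4.16, 4.03, 4.09 and 4.22 in Vhl mutants, 4.18, 4.14, 4.34 and 4.32 in Pbrm1 mutants and 4.31, 4.29, 4.21 and 4.27 in double mutants. All groups overlapped. Double mutants differed from wild type by 0.03 ± 0.10 SE on the log2 scale (95% interval -0.18 to 0.24, adjusted p = 0.92).

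In double mutants against wild type, 4 of the 9 measured genes rose and none fell, where 6.64% of all 22180 genes rose and 5.56% fell. In Vhl mutants 2 of 9 rose, Fga and Fgg, and none fell, where 2.04% of all genes rose and 1.79% fell. In Pbrm1 mutants 0 of 9 passed, where 1.59% of all genes rose and 2.45% fell. By limma 1 of the 9, Fgg, had an unadjusted p under 0.05 there. Their median log2 fold change was 0.09 in double mutants, 0.11 in Vhl mutants and 0.04 in Pbrm1 mutants, where the median of all genes lay between -0.02 and -0.01. Double mutants were higher than Vhl mutants for 2 of 9, where 3.8% of all genes were higher and 2.55% lower. They were higher than Pbrm1 mutants for 4 of 9, where 6.82% of all genes were higher and 3.37% lower. Vhl mutants were higher than Pbrm1 mutants for 2 of 9, where 4.71% of all genes were higher and 2.75% lower. None of the 9 was lower in these contrasts.

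The interaction asks whether the double mutant effect differed from the sum of the single mutant effects. It also uses the wild-type arrays, so a strain difference shared by the mutants enters it and cannot be told apart. For Fgg the singles summed to 2.0 on the log2 scale and the double mutant reached 3.96, an interaction of 1.96 ± 0.28 SE (limma adjusted p = 5.6e-04). For Fga the sum was 0.97 and the double mutant 2.28, an interaction of 1.32 ± 0.18 SE (adjusted p = 2.7e-04). These were the 2 of 9 members that passed, where 1.78% of all genes passed in this direction and 0.852% in the other. The interaction was 0.97 ± 0.43 SE for Fgb (95% interval 0.06 to 1.87, adjusted p = 0.27) and 0.20 ± 0.20 SE for Lbp (95% interval -0.22 to 0.61, adjusted p = 0.69). Double mutants exceeded Vhl mutants 6.04-fold for Fgg (log2 difference 2.59 ± 0.20 SE, adjusted p = 5.6e-08) and 2.89-fold for Fga (1.53 ± 0.13 SE, adjusted p = 1.1e-07). The calls of Fgg and Fga in the interaction and in both contrasts of double with single mutants held in every alternative tried.

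**Figure D2:**
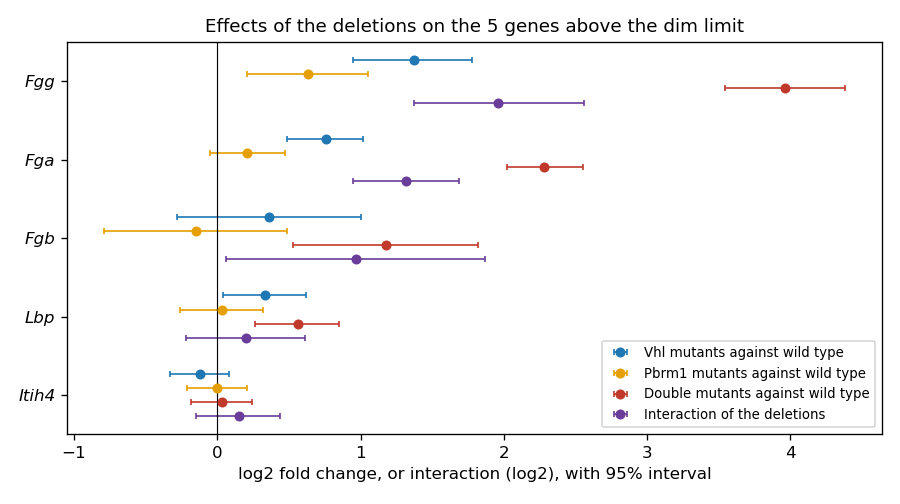
Log2 fold changes against wild type and the interaction (x axis) with 95% intervals for the 5 genes above the dim limit (y axis), n = 4 arrays per group. The double mutant effect of Fgg, 3.96, exceeds the sum of its single mutant effects, 2.0, and all intervals of Itih4 include 0.

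Of the genes on either side of the fibrinogen cluster, 1 rose in double mutants and the other did not pass. Lrat, which esterifies retinol and lies beside Fgg, rose in double mutants by 0.43 ± 0.14 SE on the log2 scale (adjusted p = 0.049), with 0.44 ± 0.14 SE in Vhl mutants (adjusted p = 0.083). Plrg1, a splicing factor beside Fgb, differed from wild type by 0.0 ± 0.07 SE in double mutants (adjusted p = 0.99). Itih4 lies on chromosome 14 with Pbrm1, and 8 measured genes lie between them. Among these, Itih1, a further inter-alpha-trypsin inhibitor heavy chain, rose in double mutants (log2 difference 0.58 ± 0.11 SE, adjusted p = 8.8e-04). Its means were 5.97 in wild-type and Vhl mutant cortex, 5.99 with Pbrm1 deleted and 6.55 with both deleted. Itih3, between Itih4 and Itih1, differed by 0.10 ± 0.15 SE (adjusted p = 0.79). Beside Orm2, Akna, an AT-hook transcription factor, rose in double mutants (0.81 ± 0.11 SE, adjusted p = 3.2e-05). Orm3, between Orm1 and Orm2, lay below the dim limit in all groups.

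The pattern of Fgg over the 16 arrays was most like that of Fga (Pearson r = 0.987). Among 16390 genes above the dim limit, the next for Fgg were Litaf (0.952), a regulator of lysosomal sorting, and Cxcl16 (0.952), a transmembrane chemokine. For Fga, Dcdc2a (0.966), a doublecortin-domain protein of cilia, and Akna (0.961) followed Fgg. For Fgb the nearest were the stress protein Nupr1 (0.905), Lbp (0.885) and the dystroglycan gene Dag1 (0.88). The coefficient of Fgb was 0.802 with Fga and 0.793 with Fgg. For Lbp they were the cytoskeletal septin Septin11 (0.919), the macrophage lysosomal protein Cd68 (0.905) and the phospholipid transfer protein Pltp (0.893). For Itih4, Itgb1bp2 led with 0.855, and for the dim Saa2, Saa3, Orm1 and Orm2 the highest values were between 0.773 and 0.837. These coefficients describe the same 16 arrays, whose spread includes the genotype differences.

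The array that was lowest within its group was the same for several members. Double mutant replicate 3 had the lowest value of its group for Fga, Fgb, Fgg and Lbp, 4 of these 4 genes, and so did wild-type replicate 1 in its group. Double mutant replicate 3 carries the same description as replicate 2, yet the SD of their differences over all genes was 0.269, against 0.21 between replicates 1 and 2 and 0.228 between replicates 3 and 4. They were kept as separate samples. Double mutant replicate 3 also had the highest adipose marker median of its group (5.29, against 4.43, 4.84 and 5.04), and the part of fat in these values was not tested. Without it the double mutant rise of Fgb against wild type was 1.48 (adjusted p = 7.4e-04) and that of Lbp 0.66 (adjusted p = 0.0026).

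Markers of other cells were read beside these results, since whole cortex cannot tell more cells of a type from more RNA per cell. In double mutants 6.64% of all genes rose and 5.56% fell, for comparison with the counts here and below. Of the hepatocyte markers, 1 of 15 rose in double mutants (Apoc3) and 3 fell (Apoa2, Hrg and Serpinc1). Their summed level was 9.12 to 9.48 (log2) in wild type, 8.94 to 9.27 in Vhl mutants, 9.15 to 9.49 in Pbrm1 mutants and 9.14 to 9.39 in double mutants, and F2, Tat, Tdo2, Kng1 and Serpina1e lay below the dim limit in double mutants. Of the neutrophil markers 0 of 12 passed in any of the contrasts with wild type (limma; 1 in double mutants and 0 in either single mutant at an unadjusted p under 0.05), with summed levels of 7.56 to 7.7 in wild type 7.66 to 7.81 with Vhl deleted, 7.65 to 7.71 with Pbrm1 deleted and 7.59 to 7.7 with both deleted, and S100a8, Retnlg, Camp and Ltf below the dim limit in every group. Platelet markers fell for 2 of 6, from 7.4 to 7.63 in wild type to 7.13 to 7.3 in double mutants. No double mutant array exceeded the wild-type range of these sums.

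Tubular injury markers were highest in double mutants, and macrophage and endothelial markers were raised in both Vhl and double mutants. Of the tubular injury markers, which include Havcr1, Vcam1 and the acute phase gene Lcn2, 12 of 13 rose in double mutants. In Vhl mutants 6 of 13 rose and in Pbrm1 mutants 0 of 13. Of all genes 6.64% rose in double, 2.04% in Vhl and 1.59% in Pbrm1 mutants. By limma 4 of the 13 had an unadjusted p under 0.05 in Pbrm1 mutants. Havcr1 was higher (log2 difference 1.62) and Lcn2, Vcam1 and Clu were lower (-0.38, -0.32 and -0.26). The list's median was 6.36 and 6.34 in Pbrm1 mutant replicates 1 and 2, which share a description number. It was 5.1 and 5.29 in replicates 3 and 4, and 5.36 to 5.81 in wild type. The summed level of the 13 was 10.21 to 10.24 in wild type, 10.41 to 10.83 in Vhl mutants, 10.1 to 10.24 in Pbrm1 mutants and 11.39 to 11.78 in double mutants. Of the macrophage markers, 9 of 14 rose in double mutants and 12 of 14 in Vhl mutants. Their summed level was 9.88 to 10.14 in wild type, 10.58 to 10.86 in double mutants and 10.49 to 10.96 in Vhl mutants, and 9.85 to 9.96 in Pbrm1 mutants, where 1 of 14 rose. Between Vhl and double mutants, 2 of the 14 were higher in double mutants and 2 lower (limma, 9 at an unadjusted p under 0.05). Of all genes, 3.8% were higher and 2.55% lower there. Itgam measured 5.09 in Vhl mutants and 5.88 in double mutants, and C1qb 8.1 and 7.4. Of the endothelial markers, 5 of 10 rose in double mutants and 5 of 10 in Vhl mutants. In Pbrm1 mutants 2 of 10 fell, where 2.45% of all genes fell. Their summed level was 11.61 to 11.76 in wild type, 11.91 to 12.08 in double mutants, 12.04 to 12.17 in Vhl mutants and 11.41 to 11.62 in Pbrm1 mutants. The part of these cells in the fibrinogen result was not tested.

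Not all tubule markers were level between groups, and 6.64% of all genes rose and 5.56% fell in double mutants. Of the thick ascending limb markers, 3 of 9 rose and 4 fell in double mutants. Their summed level was 13.5 to 13.62 in wild type and 13.48 to 13.65 in double mutants. Of the general tubule epithelium markers, 1 of 7 rose and 4 fell, with sums of 11.79 to 11.89 against 11.66 to 11.82. Proximal tubule markers, of which 1 of 10 rose and 3 fell in double mutants, summed to 15.32 to 15.38 in wild type and 15.19 to 15.25 in double mutants, with no overlap. Of the distal tubule and collecting duct markers, 8 of 12 fell and none rose in double mutants, with a median log2 fold change of -0.40 and sums of 13.05 to 13.23 in wild type against 12.56 to 12.66. Cdh16, whose promoter drives Cre, fell in double mutants (log2 difference -0.33 ± 0.05 SE, adjusted p = 5.4e-05) and in Vhl mutants (-0.22 ± 0.05 SE, adjusted p = 0.0082), and was lower in Vhl than in Pbrm1 mutants (-0.16 ± 0.05 SE, adjusted p = 0.038). The part of these tubule changes in the fibrinogen result was not tested.

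Among 21 other measured acute phase proteins, 6 rose and 1 fell in double mutants, where 6.64% of all genes rose and 5.56% fell. Lcn2, an iron-scavenging lipocalin, rose 8.73-fold (log2 difference 3.13 ± 0.17 SE, adjusted p = 3.3e-10). Complement C4b rose 5.96-fold (2.57 ± 0.21 SE, adjusted p = 3.8e-08) while its means were 5.31 in wild type, 5.33 in Vhl mutants and 5.45 in Pbrm1 mutants. The protease inhibitor Serpina3n rose 4.34-fold (2.12 ± 0.26 SE, adjusted p = 8.2e-06) and the copper carrier Cp rose by 1.59 ± 0.10 SE (adjusted p = 7.3e-10). Lrg1 and the metallothionein Mt2 were the others that rose, and the gene that fell, Orm3, lay below the dim limit. The list's median log2 fold change was 0.15, against -0.02 over all genes. Of genes picked after their values were seen, haptoglobin, Hp, measured 4.94 in wild type and 5.46 in double mutants (adjusted p = 0.22), and C-reactive protein, Crp, lay below the dim limit in all groups. In Vhl mutants 2 of the 21 rose, Lcn2 and Cp, and Cfb fell, where 2.04% of all genes rose and 1.79% fell. In Pbrm1 mutants 2 of the 21 fell, the metallothioneins Mt1 and Mt2, and none rose. Of all genes 2.45% fell and 1.59% rose in that contrast. The count of 2 in Pbrm1 mutants moved in 12 of 24 alternatives, from 0 with arrays averaged per description number to 3.

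Plasma proteins that fall in an acute phase reaction of the liver were also read. Of 9 measured, 2 rose and none fell in double mutants, against 6.64% and 5.56% of all genes. Serpina6, the corticosteroid-binding globulin, went from 3.77 in wild type to 6.73 in double mutants (2.97 ± 0.18 SE, adjusted p = 6.8e-10), a rise of 7.83-fold, with 4.06 in Vhl mutants and 3.9 in Pbrm1 mutants. The apolipoprotein Apoa4 rose 2.03-fold (1.02 ± 0.15 SE). Albumin, Alb, also picked after its value was seen, measured 6.89 in wild type and 6.21 in double mutants (adjusted p = 0.16).

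In the interleukin-6 and interleukin-1 pathway, 10 of 22 genes rose and none fell in double mutants, against 6.64% and 5.56% of all genes. The oncostatin M receptor Osmr rose 2.86-fold (1.52 ± 0.10 SE, adjusted p = 3.7e-09), the nuclear cofactor Bcl3 2.23-fold (1.16 ± 0.13 SE), the cytokine Il1b 2.21-fold (1.15 ± 0.21 SE) and the transcriptional regulator Nfkbiz 1.79-fold (0.84 ± 0.09 SE). The list's median was 0.33. Genes of interleukin-6 signalling and C/EBP factors were picked after their values were seen. Stat3 rose (0.65 ± 0.06 SE, adjusted p = 7.0e-07), as did its feedback inhibitor Socs3 (0.81 ± 0.14 SE) and the receptor chain Il6ra (0.29 ± 0.09 SE). The shared receptor subunit Il6st measured 9.81 in wild type and 9.94 in double mutants (adjusted p = 0.079), and Il6 lay below the dim limit in all groups. Means in wild type and double mutants were 5.54 and 5.57 for Cebpb and 5.23 and 5.62 for Cebpd. They were 9.65 and 9.62 for the kinase Jak1. The mean of the kinase Jak2 rose from 7.5 (SD 0.15) in wild type to 7.94 (SD 0.04) in double mutants. The part of these genes in the fibrinogen result was not tested. In Vhl mutants 4 of 22 rose (Osmr, Nfkbiz, Socs3 and Pim1) and none fell, where 2.04% of all genes rose and 1.79% fell. In Pbrm1 mutants Bcl3 and Jak2 rose and Lifr fell, where 1.59% of all genes rose and 2.45% fell. Without double mutant replicates 1, 2 and 3 the number called in double mutants was 5, and with arrays averaged per description number it was 1 in Vhl mutants and 0 in Pbrm1 mutants.

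Clotting and fibrinolysis genes went both ways, with 6 of 23 higher and 3 lower in double mutants (6.64% and 5.56% of all genes). Tissue factor, F3, which starts clotting, rose 1.86-fold (0.90 ± 0.15 SE, adjusted p = 3.7e-04). Clotting factor F5 fell by 1.15 ± 0.12 SE on the log2 scale (adjusted p = 1.2e-06), and the carboxypeptidase N chain Cpn1 fell by 2.55 ± 0.17 SE, with means of 8.97 in wild type, 9.26 with Vhl deleted, 5.22 with Pbrm1 deleted and 6.44 with both deleted. Antithrombin, Serpinc1, fell by 0.72 ± 0.23 SE (adjusted p = 0.046), a call lost in 14 of 23 alternatives, with values from -1.18 to -0.26. It ended without any one of wild-type replicates 3 or 4 or double mutant replicates 2, 3 or 4. Without double mutant replicates 1, 2 and 3 together, 5 genes of the list were called in place of 9.

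Of 15 receptors and partners of the proteins described here, 10 rose and 1 fell in double mutants, with a median of 0.41. Of all genes 6.64% rose and 5.56% fell. Cd14, which receives lipopolysaccharide from Lbp, rose 2.73-fold (1.45 ± 0.15 SE, adjusted p = 1.2e-06). Itgam and Itgb2, the chains of the leukocyte integrin that binds fibrinogen, rose 2.61-fold (1.39 ± 0.16 SE) and 1.48-fold (0.57 ± 0.12 SE), and Scarb1, a lipoprotein and serum amyloid receptor, 1.48-fold (0.56 ± 0.09 SE). Itgam is also a macrophage marker. The Itgb2 call ended without wild-type replicates 3 and 4 or double mutant replicates 1, 2 and 3 (highest adjusted p 0.17), and the latter lowered the number called in the list from 11 to 5. Among 6 genes of the inter-alpha-trypsin inhibitor family, Itih1 rose and Itih5 fell by 0.45 ± 0.13 SE (adjusted p = 0.02). The Itih5 call ended in 5 of 23 alternatives, among them those without wild-type replicate 3 (adjusted p = 0.063) or double mutant replicate 4 (adjusted p = 0.057).

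**Figure D3:**
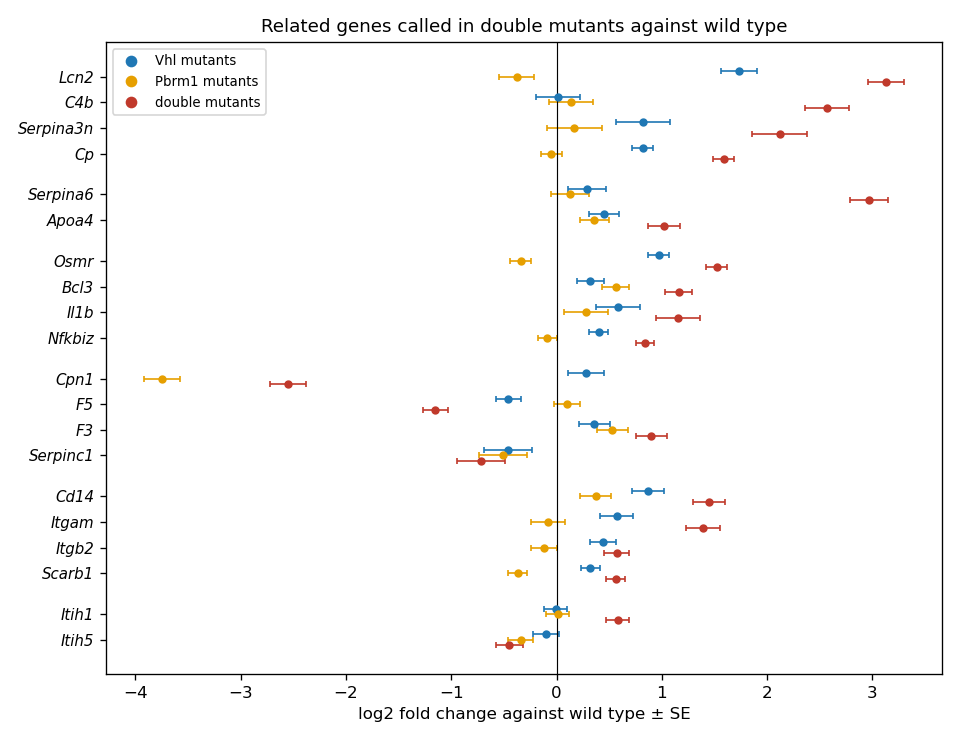
Log2 fold changes against wild type ± SE (x axis, n = 4 arrays per group) for the called genes of each related list (y axis; up to 4 per list, largest change in double mutants). Lcn2, C4b, Serpina3n and Serpina6 reach 2.12 to 3.13 in double mutants, and C4b is at 0.01 in Vhl mutants and 0.14 in Pbrm1 mutants.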

How the data were processed

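The deposited table holds log2 expression; the submitters' processing notes name RMA, which corrects background, normalizes quantiles and summarizes probes, and Affymetrix Expression Console 1.4. Of 41345 probe sets on 16 arrays, the 23521 annotated to 1 gene symbol were used, with the probe set of highest mean for each of 22180 genes. Groups came from the labels, and 0 columns of values were left unused. The members and the gene lists were chosen with earlier results of these data known. Differences were tested with limma (version 3.58.1, run under R 4.3.3), taking the 4 genotypes as fixed effects, the description number as a random block (consensus correlation 0.0838) and a prior variance that follows mean expression. Benjamini-Hochberg adjustment ran over all genes, with a threshold of 0.05. No expression filter was applied; genes with a group mean under 3.72 get no fold. The method was tested on simulated data whose arrays varied independently, so that test does not cover arrays that share an animal. Named were the 10 members, up to 4 called genes of each related list with the largest change in double mutants, the nearest measured neighbours and the 3 most alike genes by Pearson correlation, besides genes said to be picked after their values were seen or that make up a printed count. Alternatives left out arrays or description numbers, and changed the block, normalization, probe set rule, filter, variance prior and weights. Probe sets of Vhl and Pbrm1 did not separate the genotypes (Vhl 6.34 in wild type and 6.22 in double mutants, Pbrm1 8.19 and 8.13), so they check no label. Neither the array's genome build nor separate animals are given in the sources used here. Precision is limited by how many arrays each group has.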

Additional observations from a re-analysis of the deposited data

Results flagged for a closer look

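Fgb measured 4.75 in double mutant replicate 3, where the other double mutant arrays measured 5.94 to 6.12, a gap large enough to stand apart by Dixon's criterion. Saa3 measured 3.4 in double mutant replicate 2, against 3.8 to 3.84 on the others, but 3.4 lies under the dim limit of 3.72. These were 2 of 36 groups of 4 arrays examined, and chance sets apart about 1 in 20, so this is about the number that chance gives.

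The difference of double mutants from wild type exceeded the sum of the single mutant differences for 2 genes, a comparison that strain also enters. The interaction was 1.32 on the log2 scale for Fga (limma adjusted p = 2.7e-04) and 1.96 for Fgg (adjusted p = 5.6e-04), and every double mutant array lay above every array of the other groups for both genes.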

How the results depend on the processing

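Over 35 alternatives, 1520 recomputed results on the 9 genes kept their side of the threshold, 23 lost a call and 11 gained one. No called value changed sign, but differences that had not passed did so in some alternatives, among them Fgb in Vhl mutants against wild type (0.36, with a lowest value of -0.22), Lbp in Pbrm1 mutants (0.03, from -0.04 to 0.1) and several of the dim genes and Itih4. Fga and Fgg kept their calls in double mutants (log2 fold changes 2.22 to 2.4 and 3.68 to 4.24) and in Vhl mutants (0.63 to 0.88 and 1.08 to 1.65) in all alternatives run for these contrasts. Leaving out arrays or description numbers gave 2 to 4 genes called in double mutants against wild type, 0 to 1 in Pbrm1 mutants against wild type, 2 to 4 in double against Pbrm1 mutants and 0 to 4 in Vhl against Pbrm1 mutants; for Vhl mutants against wild type, double against Vhl mutants and the interaction the range was 2 to 3. Fitting only the groups compared called 1 gene, Fgg, in Pbrm1 mutants against wild type. Without a trend in the prior variance 1 gene was called between Vhl and Pbrm1 mutants. Without the 3 arrays of highest adipose marker median, an alternative chosen after seeing the data, 1 gene was called in each of these contrasts. The causes were not tested. The filter on dim genes removed Saa2, Orm1 and Orm2. Over all genes, the number called in double mutants against wild type was 2706, with 1212 without double mutant replicates 1, 2 and 3 and 3157 without the block by description number; averaging arrays per description number lowered it from 851 to 246 in Vhl mutants, from 895 to 274 in Pbrm1 mutants and from 583 to 99 for the interaction.

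Same-numbered replicates of different groups did not deviate together (correlations from -0.07 to 0.06), so the replicate numbers do not pair the arrays. With the replicate block, 4 genes were called in double mutants against wild type, 2 in Vhl mutants, 0 in Pbrm1 mutants, 2 in double against Vhl mutants, 4 in double against Pbrm1 mutants, 2 in Vhl against Pbrm1 mutants and 2 for the interaction, as without it.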
